A study of Mus musculus with 9 samples.

Results

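The lincRNAs described here are the 254 genes that the deposited annotation types as lincRNA (long intergenic noncoding RNA) and whose mean level reached 1 CPM (counts scaled to the library total) in at least 1 of the 3 groups of 3T3-L1 cells. They were chosen from 5559 lincRNA rows, of which 1724 had a count in any library, in a table of 54532 genes. The imprinted transcripts H19, Meg3, Rian and Mirg were left out by name, and none of them was at 1 CPM. The mouse 3T3-L1 line is made of preadipocytes that fill with lipid under an adipogenic cocktail, and the labels call its cell type fibroblast. Each group had 3 libraries: the Undifferentiated controls, Differentiated cells and Lysfree cells, all first kept confluent for 3 days in medium with calf serum. The Differentiated cells then received insulin at 10 μg/mL, rosiglitazone and dexamethasone at 1 μM each, and the phosphodiesterase inhibitor IBMX at 0.5 mM. The Lysfree cells received the same cocktail in medium to which no lysine was added, although serum may bring traces. Per the study's methods, the cocktail came in a base medium free of arginine and lysine, with arginine and, for Differentiated, lysine added back. That medium held fetal bovine serum in place of calf serum. Medium and serum may therefore differ between Undifferentiated and both cocktail groups, and their part was not tested. All 9 libraries came from the same line, and nothing in the labels says that replicates were separate cultures, so p-values measure the spread between these libraries, which may be technical.

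Long intergenic noncoding RNAs are transcribed, spliced and often polyadenylated like messenger RNAs but carry no long open reading frame. Some stay in the nucleus and scaffold nuclear bodies or act on chromatin near their own gene, others bind proteins or microRNAs in the cytoplasm, and others serve mainly as hosts whose introns or exons give small nucleolar RNAs (snoRNAs) or microRNAs. In adipocyte differentiation, PPARγ and C/EBP factors switch on lipid genes while preadipocyte genes are shut off. Lysine is an essential amino acid, and the comparison of Lysfree with Differentiated cells asked how its absence changed the response to the cocktail.

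Most of the 254 genes are known only by an identifier. The symbols of 127 are predicted-gene names that start with Gm, 81 are RIKEN clone names and 46 are other symbols. Their median length was 2233 bases and their median number of exon blocks was 3, with 46 genes in a single block. RefSeq held 158 of them by symbol or identifier and typed 144 as lncRNA, 12 as protein coding, 1 as a pseudogene and 1 as a transcribed pseudogene, so the lincRNA type is not shared by both annotations for every gene. The span of 130 overlapped another gene of the table, 56 on the same strand and 98 on the opposite strand. Reads from an overlap could be counted for either gene or for neither. The nearest protein-coding gene lay within 10 kb of 171, and 43 started within 1 kb of a protein-coding gene transcribed the other way from a shared region. The annotation places 44 small RNAs inside 20 of them.

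Library totals ranged from 15880144 to 21806693 counts, with a median of 17784064. Of these counts, the 254 lincRNAs held 0.255% ± 0.007 (SD, n = 3) in Undifferentiated, 0.273% ± 0.009 in Differentiated and 0.263% ± 0.021 in Lysfree, and 5 genes held between 46.7% and 64.2% of that share in each library. The summed FPKM (fragments scaled to gene length and library total) of 8 adipocyte markers was 314 to 395 in Undifferentiated, 6890 to 7245 in Differentiated and 292 to 408 in Lysfree. The sample titles call the Lysfree cells differentiated too, but their sum lay near that of Undifferentiated. The summed FPKM of 6 preadipocyte markers, most of it from Col1a1 and Col1a2, was 3452 to 3783 in Undifferentiated, 634 to 653 in Differentiated and 906 to 966 in Lysfree. The sums hide members that went the other way in Lysfree against Undifferentiated. At edgeR's adjusted p under 0.05, Thy1 was higher and 5 preadipocyte markers were lower there. Cd36 and Lpl were higher and 5 adipocyte markers lower, beside 18% and 17.1% of all genes tested. Of the markers of other cells, Ptprc, Adgre1, Kdr, Myod1 and Epcam were at or near 0, and the macrophage list summed to 1.63 to 1.92 FPKM in Undifferentiated, 3.44 to 5.01 in Differentiated and 3.62 to 4.85 in Lysfree. Nearly all of that sum was Cd68, which was called higher in both cocktail groups than in Undifferentiated (log2 fold change 1.29 and 1.46), while Csf1r was called lower in both. The epithelial marker Krt8 had 0, 3 and 1 counts in Undifferentiated, 7, 22 and 18 in Differentiated and 0 in each Lysfree library, and was called higher in Differentiated than in either other group. The part of such cells in the results was not tested. Lysfree replicate 1 stood apart: 7 of the 190 lincRNAs with a mean of at least 1 CPM over the 9 libraries deviated by 2-fold or more from the other 2 Lysfree libraries, against at most 2 in each other library. In such bulk RNA, fewer cells of a type and less RNA per cell cannot be told apart.

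The level of the lincRNAs spanned from 0.0580 to 123 FPKM as a mean over the 9 libraries, with a median of 1.11, against 7.26 for the 11809 protein-coding genes chosen by the same rule. The most abundant was Gm26917, whose function is not known, with 57.2, 60.6 and 59.2 FPKM in Undifferentiated, 211, 223 and 239 in Differentiated and 54.6, 105 and 94.2 in Lysfree. Every Differentiated library was above every other library, and the difference from Undifferentiated was 3.73-fold (log2 fold change 1.90 ± 0.05 SE, adjusted p = 1.67e-289). Lysfree was below Differentiated (log2 fold change -1.34 ± 0.15, adjusted p = 3.28e-07), and without Lysfree replicate 1 the log2 fold change was -1.12. Gm26917 (chr17:39843013-39846341, GRCm38, plus strand) ends 13 bases before Rn18s-rs5, a gene annotated as a pseudogene and named for 18S ribosomal RNA, and the part that ribosomal RNA reads may have in its counts was not tested. Without Gm26917 the share of counts on the lincRNAs was 0.236% in Undifferentiated, 0.201% in Differentiated and 0.233% in Lysfree.

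**Figure D1:**
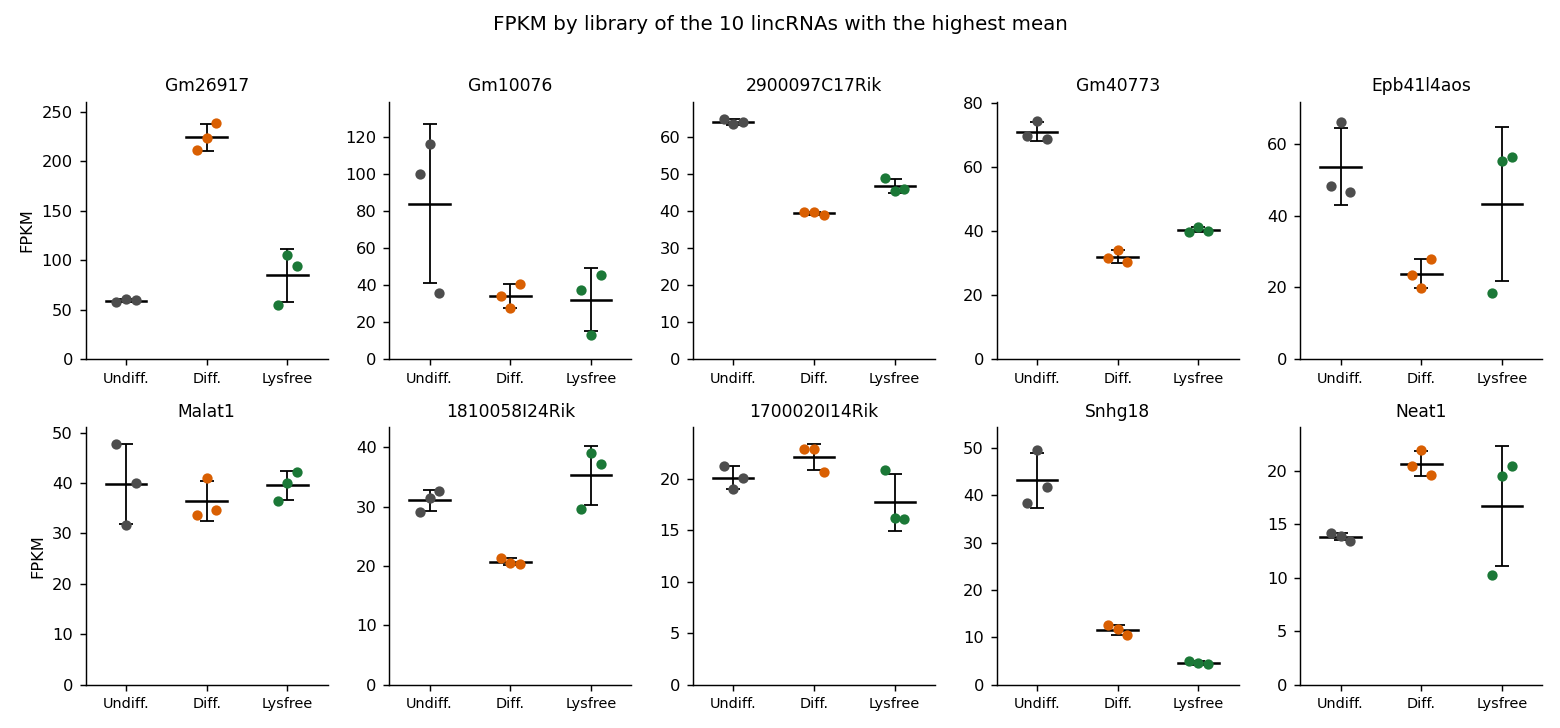
FPKM (vertical axis, from 0) in each of the 9 libraries for the 10 lincRNAs with the highest mean. Points are libraries, the wide bar is the mean and the whiskers are 1 SD of 3 libraries. Gm26917 is highest in Differentiated at 211 to 239 FPKM, and Snhg18 falls from 43.1 in Undifferentiated to 4.66 in Lysfree.

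Among the other abundant lincRNAs, Malat1 and Neat1 stayed under the 2-fold threshold in every comparison. Malat1, a nuclear speckle RNA, had 47.7, 31.7 and 40.1 FPKM in Undifferentiated, 33.7, 41.0 and 34.6 in Differentiated and 36.4, 40.0 and 42.1 in Lysfree. The groups overlapped, and no comparison reached 2-fold (log2 fold change -0.15 ± 0.05 for Differentiated and 0.04 ± 0.11 for Lysfree against Undifferentiated, and 0.18 ± 0.10 for Lysfree against Differentiated). Neat1, the scaffold of paraspeckles, had 14.2, 14 and 13.5 FPKM in Undifferentiated, 20.4, 22 and 19.6 in Differentiated and 10.3, 19.5 and 20.4 in Lysfree. It was 1.46-fold higher in Differentiated than in Undifferentiated (adjusted p = 9.09e-26), below the 2-fold threshold, with no overlap. Lysfree replicate 1 held the lowest Neat1 level of all 9 libraries, and without it the log2 fold change of Lysfree against Undifferentiated was 0.55 in place of 0.32. Of 8 paraspeckle protein genes, 6 were higher and 2 lower in Differentiated than in Undifferentiated at adjusted p under 0.05, beside 23% and 23.2% of all genes tested, and none reached 2-fold.

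2900097C17Rik is the mouse Norad, a cytoplasmic RNA that sequesters Pumilio proteins, which repress messenger RNAs through a short element. It had 64.8, 63.3 and 64.0 FPKM in Undifferentiated, 39.6, 39.5 and 38.8 in Differentiated and 48.9, 45.2 and 45.9 in Lysfree. The 3 groups did not overlap, and Norad was 1.66-fold lower in Differentiated (adjusted p = 1.26e-41) and 1.33-fold lower in Lysfree (adjusted p = 0.000634) than in Undifferentiated, both under 2-fold. Its 4915-base transcript in GENCODE vM21 held 11 copies of the Pumilio element TGTANATA on the transcribed strand, the highest number among the longest transcripts of the 254 lincRNAs. The element was in none of the longest transcripts of 193 lincRNAs, and over all of them it occurred 0.157 times per kb. Norad had 2.24 per kb, and the shorter transcript of Gm7292 was denser, with 9 copies or 3.56 per kb.

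1700020I14Rik is the mouse Cyrano (Oip5os1 in RefSeq), known for a long and nearly complete pairing with microRNA miR-7, which it marks for destruction. The site was found in its transcript by sequence alone and is printed beside the microRNA. In the site, capitals mark the bases that pair, 21 of the 23 bases of miR-7a-5p, and in the microRNA they mark the seed (bases 2 to 8).
Cyrano site: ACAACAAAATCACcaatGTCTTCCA
miR-7a-5p: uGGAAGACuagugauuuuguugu
Cyrano had 21.2, 19 and 20.1 FPKM in Undifferentiated, 22.8, 22.8 and 20.7 in Differentiated and 20.9, 16.1 and 16.1 in Lysfree. The values overlapped, and no comparison passed the test (adjusted p = 0.0899, 0.361 and 0.0512).

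The mean levels of the remaining abundant lincRNAs were lower in Differentiated than in Undifferentiated. Gm40773 had 69.6, 74.3 and 68.7 FPKM in Undifferentiated, 31.6, 34.2 and 30.2 in Differentiated and 39.7, 41.2 and 40.0 in Lysfree, with no overlap between groups. It was 2.26-fold lower in Differentiated (adjusted p = 6.32e-71) and 1.70-fold lower in Lysfree (adjusted p = 1.52e-07) than in Undifferentiated. 1810058I24Rik, which RefSeq types as protein coding, had 31.1 ± 1.76 FPKM in Undifferentiated, 20.7 ± 0.539 in Differentiated and 35.3 ± 4.99 in Lysfree, and was 1.78-fold higher in Lysfree than in Differentiated (adjusted p = 1.85e-06). Gm10076, which RefSeq types as a pseudogene, had 100, 116 and 35.5 FPKM in Undifferentiated, 33.8, 27.5 and 40.6 in Differentiated and 37.5, 13.2 and 45.6 in Lysfree. Undifferentiated replicate 3 lay within the range of the other groups, so although it passed the test in Differentiated (log2 fold change -1.36 ± 0.10, adjusted p = 3.81e-44), the values overlapped, and it did not pass with limma on log2(FPKM + 0.1). Reads that a pseudogene may share with related genes were not measured here, so its level is uncertain.

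Of the 254 lincRNAs, 105 passed both thresholds (adjusted p under 0.05 by edgeR's quasi-likelihood test with Benjamini-Hochberg adjustment, and at least 2-fold) in Differentiated vs Undifferentiated. In that comparison 41 (16.1%) were higher and 64 (25.2%) were lower in Differentiated, beside 10.4% and 11.4% of all 24402 genes tested. Between Lysfree and Undifferentiated 20 (7.87%) were higher and 44 (17.3%) lower in Lysfree, beside 5.52% and 8.76% of all genes. Between Lysfree and Differentiated 51 (20.1%) were higher and 43 (16.9%) lower in Lysfree, beside 8.14% and 10.5% of all genes. The excess of higher over lower calls in this last comparison was not stable, since DESeq2 called 41 higher and 44 lower and limma on log2(FPKM + 0.1) called 33 and 40. These shares are a description, because genes were chosen for their level in any group, and 73 that were at 1 CPM in a single group (30 in Undifferentiated, 32 in Differentiated and 11 in Lysfree) had to differ. Protein-coding genes chosen by the same rule gave 15.1% higher and 17.2% lower in Differentiated, 8.41% and 12.8% in Lysfree against Undifferentiated, and 12.9% and 15.1% in Lysfree against Differentiated.

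The lincRNAs at 1 CPM in all 3 groups, 139 of the 254, were not held to such a difference. In Differentiated against Undifferentiated 10 of these (7.19%) were higher and 24 (17.3%) lower, beside 10.4% and 11.4% of all genes tested. In Lysfree against Differentiated 26 (18.7%) were higher and 10 (7.19%) lower, beside 8.14% and 10.5%. In Lysfree against Undifferentiated 12 (8.63%) were higher and 8 (5.76%) lower, beside 5.52% and 8.76%. All genes tested include many with few counts. Protein-coding genes with a mean of at least 1 CPM over the 9 libraries gave 14.5% higher and 16.6% lower in Differentiated against Undifferentiated. They gave 12.7% and 14.4% in Lysfree against Differentiated, and 8.18% and 12% in Lysfree against Undifferentiated. That rule is looser than the one for the 139, since it keeps genes under 1 CPM in a group. The 190 lincRNAs that met it gave 11.1% higher and 21.6% lower in Differentiated against Undifferentiated. They gave 20% and 12.6% in Lysfree against Differentiated, and 7.37% and 12.6% in Lysfree against Undifferentiated. Over all 254, the median log2 fold change was -0.31 in Differentiated against Undifferentiated, -0.15 in Lysfree against Undifferentiated and 0.12 in Lysfree against Differentiated, beside 0.02, -0.02 and -0.06 for all genes tested. The group with the lowest mean level was Differentiated for 120 lincRNAs (47.2%, beside 40.2% of the protein-coding genes). In all, 106 lincRNAs were not called in any comparison and 14 were called in all 3, the comparisons sharing libraries.

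**Figure D2:**
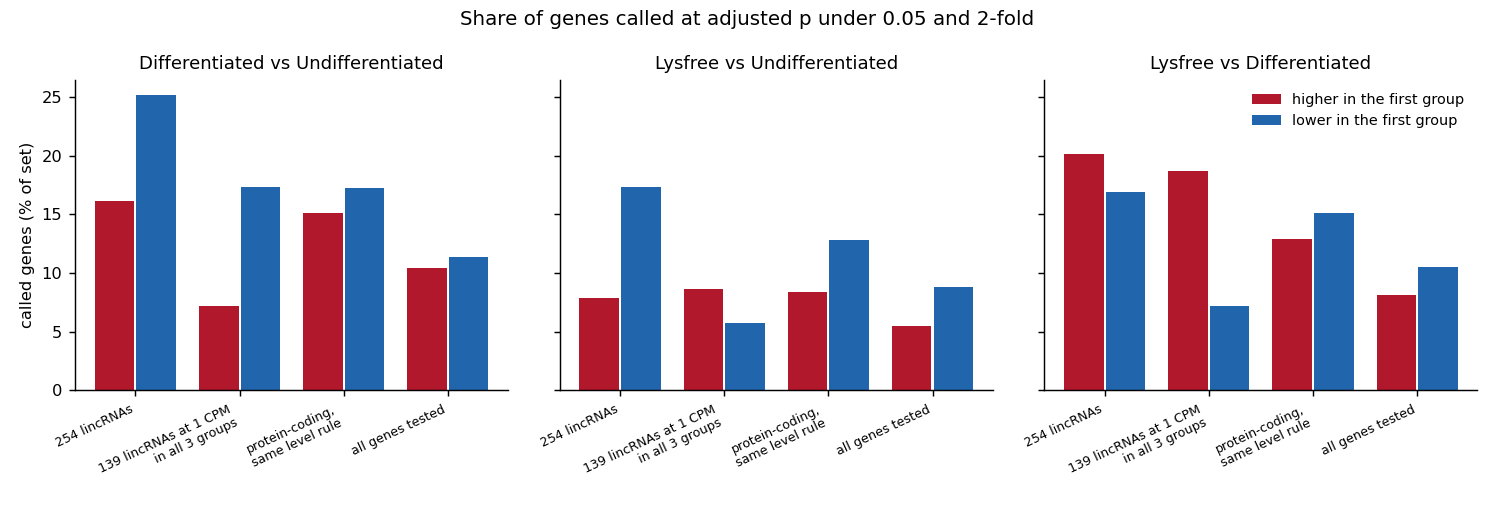
Percent of genes (vertical axis) called higher (red) or lower (blue) in the first-named group, at adjusted p under 0.05 and at least 2-fold, for the 254 lincRNAs, the 139 at 1 CPM in all 3 groups, the 11809 protein-coding genes chosen by the same level rule and all genes tested. Among the 254, 25.2% were lower and 16.1% higher in Differentiated than in Undifferentiated, and 20.1% were higher and 16.9% lower in Lysfree than in Differentiated.

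The comparison of Differentiated with Undifferentiated cells asked which lincRNAs moved with the adipogenic cocktail and its medium in the presence of lysine. The largest rises were in lincRNAs that were almost undetected in the other groups. Here and below, a lincRNA at 1 CPM in a single group had to differ, so its test and lack of overlap are only a description. Smkr-ps, on chr6:29985329-29993776, had 0.0517, 0.251 and 0.413 FPKM in Undifferentiated, 4.35, 6.63 and 5.26 in Differentiated and no count in any Lysfree library. It was 23-fold higher in Differentiated than in Undifferentiated (log2 fold change 4.53 ± 0.35, adjusted p = 6.93e-38). 3930402G23Rik had 0.0847, 0.0686 and 0.0564 FPKM in Undifferentiated, 2.26, 2.75 and 2.65 in Differentiated and 0.0856, 0.189 and 0.264 in Lysfree. It rose 34.3-fold in Differentiated (log2 fold change 5.10 ± 0.29, adjusted p = 1.19e-68), with every Differentiated library far above all others. It lies 55985 bases from Irs2, the insulin receptor substrate gene, on the same strand, and Irs2 stood at 7.72, 54.7 and 19.4 FPKM in Undifferentiated, Differentiated and Lysfree.

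Gm5627 had counts of 1, 0 and 0 in Undifferentiated, 70, 68 and 43 in Differentiated and 2, 0 and 1 in Lysfree. Its level was therefore at least 22.3-fold higher in Differentiated than in Undifferentiated, against a floor of 3 counts per library. Gm12840 had 1 count in each Undifferentiated library, 66, 57 and 63 in Differentiated and 3, 2 and 2 in Lysfree, at least 23.1-fold higher in Differentiated. B130011K05Rik, with 2, 1 and 2 counts in Undifferentiated and 41, 48 and 39 in Differentiated, was at least 15.8-fold higher. Gm30918, with no Undifferentiated count and 67, 73 and 71 in Differentiated, belongs with them. All of these passed the test, and their Differentiated values did not overlap with those of Undifferentiated. Each was chosen through its Differentiated level alone, so neither result is separate support for the rise.

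The largest falls after differentiation were in 5430403N17Rik, AC130815.1, Gm26645, Gm4544, AC161376.2 and Zfp469. 5430403N17Rik had 2.96, 2.93 and 3.18 FPKM in Undifferentiated, 0.228, 0.168 and 0.0970 in Differentiated and 2.79, 2.67 and 2.24 in Lysfree. It fell 18.5-fold in Differentiated (log2 fold change -4.21 ± 0.27, adjusted p = 6.10e-54). Its Lysfree libraries all lay above the Differentiated ones and just below the Undifferentiated ones, and Lysfree against Undifferentiated did not pass the test (log2 fold change -0.19 ± 0.18, adjusted p = 0.470). AC130815.1 had 1.95, 2.05 and 2.11 FPKM in Undifferentiated, 0.0367, 0.0610 and 0.246 in Differentiated and 0.388, 0.268 and 0.205 in Lysfree, an 18-fold fall in Differentiated (adjusted p = 2.68e-50). Its neighbour Apod, a lipocalin gene 4296 bases away on the same strand, was at 335, 23.2 and 26.2 FPKM in the same groups and also fell in both (log2 fold change -3.88 ± 0.06 and -3.63 ± 0.10).

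Gm26645, 1940 bases from the start region of Gli3, a transcription factor of hedgehog signalling, had 1.57, 1.70 and 1.38 FPKM in Undifferentiated, 0, 0.163 and 0.235 in Differentiated and 0.692, 0.279 and 0.626 in Lysfree. It overlaps Gm6556 on the same strand. It fell 11.3-fold in Differentiated (adjusted p = 9.39e-14), and Gli3 fell with a log2 fold change of -1.93 ± 0.08. Gm4544 fell 10.2-fold, from 2.96 ± 0.678 to 0.295 ± 0.219 FPKM (adjusted p = 1.67e-24). AC161376.2 fell 9.18-fold, from 2.82 ± 0.512 to 0.305 ± 0.0691 FPKM (adjusted p = 7.32e-26). Zfp469, a zinc finger gene that RefSeq types as protein coding and that lies within the span of the gene Gm20388, fell 7.92-fold, from 2.45 ± 0.236 to 0.308 ± 0.147 FPKM (adjusted p = 7.09e-38). In none of these did the Undifferentiated and Differentiated values overlap.

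**Figure D3:**
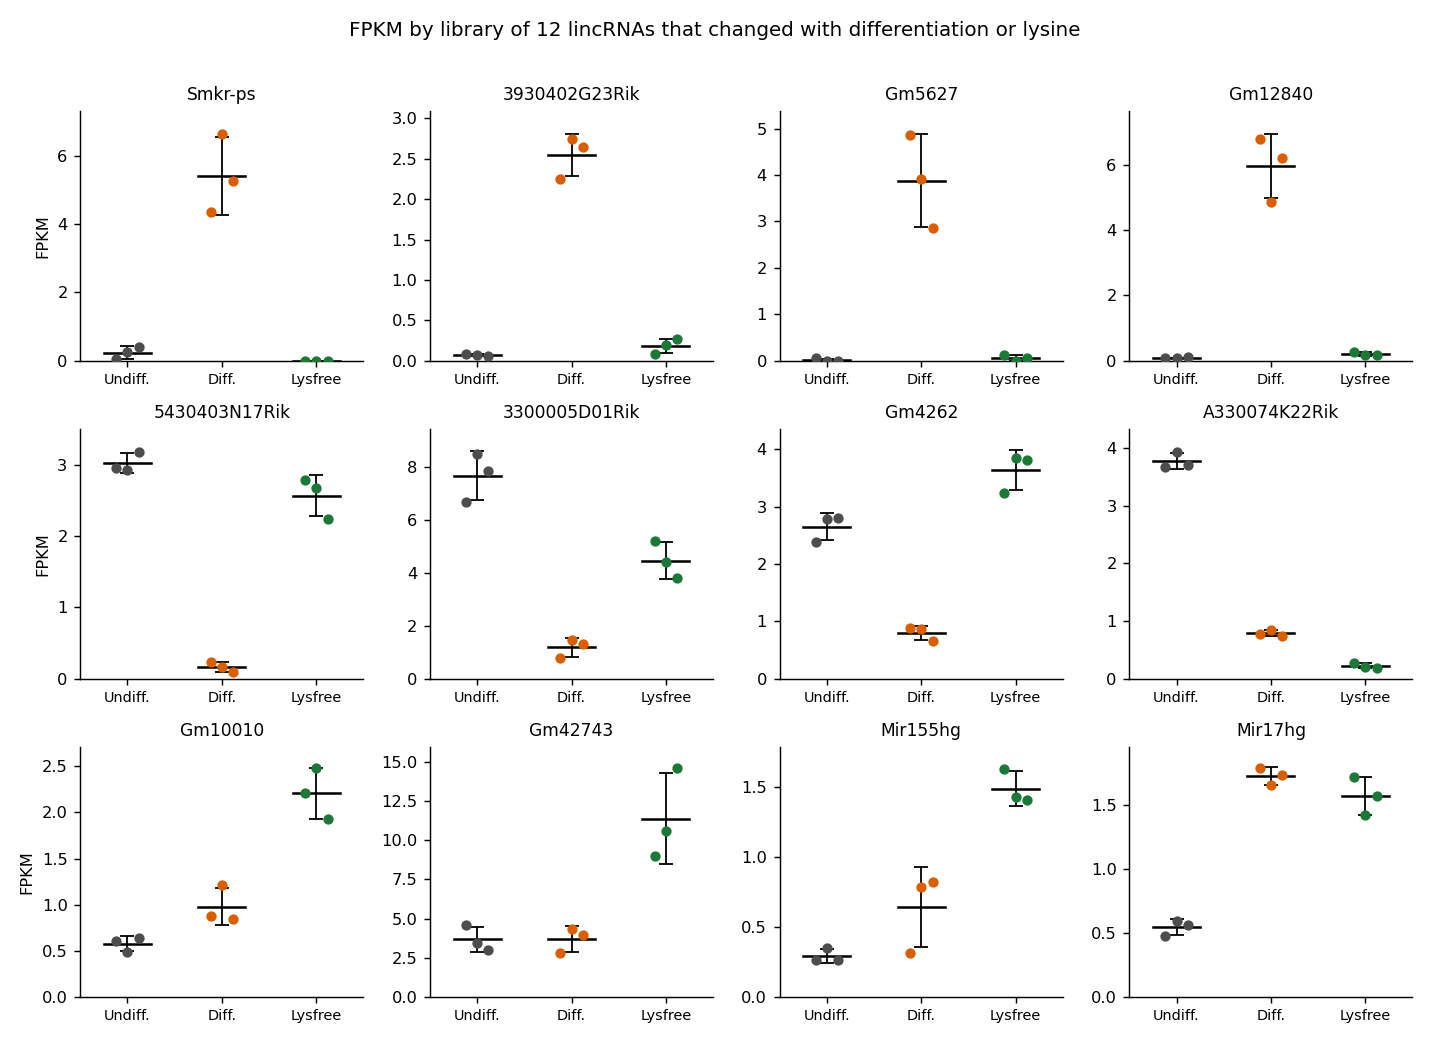
FPKM (vertical axis, from 0) in each library for 12 lincRNAs with called differences. Points are libraries, wide bars are means and whiskers are 1 SD of 3 libraries. The top row shows lincRNAs high in Differentiated alone, 5430403N17Rik is at 3.02 FPKM in Undifferentiated, 0.164 in Differentiated and 2.57 in Lysfree, and Mir155hg is highest in Lysfree at 1.49.

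The comparison of Lysfree with Undifferentiated cells set the cocktail and its medium, without lysine, against cells without the cocktail. Gm10010 had 0.600, 0.486 and 0.639 FPKM in Undifferentiated, 0.882, 1.21 and 0.844 in Differentiated and 2.21, 2.48 and 1.93 in Lysfree, a 3.98-fold rise in Lysfree (log2 fold change 1.99 ± 0.25, adjusted p = 6.32e-08). The 3 groups were ordered with no overlap, and Tead4, a transcription factor gene 23665 bases away, was at 3.36, 9.04 and 15.4 FPKM in the same order. Gm42743 had 4.57, 3.44 and 3.02 FPKM in Undifferentiated, 2.78, 4.34 and 3.97 in Differentiated and 8.96, 10.6 and 14.6 in Lysfree. Only the Lysfree libraries stood apart, 3.19-fold above Undifferentiated (adjusted p = 6.27e-09) and 3.21-fold above Differentiated (adjusted p = 3.57e-07). Gm42743 overlaps the histone gene Hist2h2bb on the same strand, which is listed at 0.

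Gm17399, whose start lies 54 bases from that of Cmc1 on the opposite strand, had 1.11, 1.12 and 0.423 FPKM in Undifferentiated, 1.75, 1.95 and 1.94 in Differentiated and 3.71, 2.62 and 2.09 in Lysfree. It rose 3.17-fold in Lysfree over Undifferentiated (adjusted p = 7.02e-05), while Cmc1, a mitochondrial assembly factor gene, was at 14.1, 14.4 and 10.7 FPKM and did not pass the test there. Gm46404 rose 3.16-fold in Lysfree, from 0.570 ± 0.150 to 1.76 ± 0.468 FPKM (adjusted p = 6.02e-07). Gm35507 had 0, 1 and 0 counts in Undifferentiated, 2, 0 and 5 in Differentiated and 35, 33 and 53 in Lysfree. Its FPKM in Lysfree was 0.721, 0.627 and 0.989, above every library of the other groups.

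Among the falls in Lysfree, A330074K22Rik had 3.68, 3.94 and 3.71 FPKM in Undifferentiated, 0.779, 0.841 and 0.746 in Differentiated and 0.274, 0.211 and 0.186 in Lysfree. The groups were ordered with no overlap, a 16.3-fold fall in Lysfree (log2 fold change -4.02 ± 0.26, adjusted p = 1.54e-14) and a 4.86-fold fall in Differentiated (adjusted p = 2.40e-33). AC130815.1, AC161376.2 and Gm4544 were also lower in Lysfree than in Undifferentiated, 6.87-fold, 3.83-fold and 3.78-fold. Gm26606, whose span overlaps Mycbp on the opposite strand, fell 3.9-fold in Lysfree, from 1.01 ± 0.165 to 0.246 ± 0.102 FPKM (adjusted p = 2.50e-05).

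The comparison of Lysfree with Differentiated cells set the same cocktail with and without lysine. 5430403N17Rik was 16.1-fold higher in Lysfree than in Differentiated (log2 fold change 4.01 ± 0.29, adjusted p = 3.13e-10), and Zfp469 was 5.62-fold higher (adjusted p = 7.11e-07). Gm4262 had 2.39, 2.78 and 2.80 FPKM in Undifferentiated, 0.879, 0.865 and 0.655 in Differentiated and 3.24, 3.85 and 3.81 in Lysfree, 4.74-fold higher in Lysfree than in Differentiated (log2 fold change 2.24 ± 0.22, adjusted p = 2.90e-08). It lies inside the span of Litaf, a lysosomal membrane protein gene on the opposite strand, which was at 34.9, 23.3 and 54.5 FPKM and also rose in Lysfree over Differentiated (log2 fold change 1.29 ± 0.10). 3300005D01Rik had 6.67, 8.49 and 7.87 FPKM in Undifferentiated, 0.796, 1.48 and 1.30 in Differentiated and 5.20, 4.41 and 3.81 in Lysfree, 3.87-fold higher in Lysfree than in Differentiated (adjusted p = 1.03e-06). Its 3 groups did not overlap. B230217O12Rik, which starts 234 bases from Fam160b1 on the opposite strand, had 0.669, 0.589 and 0.980 FPKM in Differentiated and 2.39, 2.40 and 3.08 in Lysfree, a 3.68-fold difference (adjusted p = 5.26e-06).

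The lincRNAs lower in Lysfree than in Differentiated included 5 that had no count in any Lysfree library. Smkr-ps, 4930511E03Rik, B130011K05Rik and B430319H21Rik were among them, and the falls were at least 27.7-fold, 16.5-fold, 14.4-fold and 12.1-fold against a floor of 3 counts per library. 4930511E03Rik differed from the others in its Undifferentiated level: it had 22, 25 and 13 counts there, 46, 51 and 49 in Differentiated and 0 in each Lysfree library. Lysfree was thus at least 5.86-fold below Undifferentiated also. Gm30918 and Gm5627 fell at least 23.8-fold and 20.4-fold, with 3, 0 and 0 and with 2, 0 and 1 counts in Lysfree. In total 13 lincRNAs were at or under the floor in Lysfree, 9 in Undifferentiated and 3 in Differentiated.

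The promoters of 5 of these lincRNAs are printed because they represent the patterns above. Smkr-ps and Gm5627 were high in Differentiated alone, 5430403N17Rik and Gm4262 were low in Differentiated alone, and Snhg18, described further on, fell in both cocktail groups. Each runs 5′ to 3′ from 250 bases before to 50 bases after the RefSeq start (RefSeq, GRCm38.p6). The intervals are chr6:29985079-29985378 (plus strand), chr9:102739398-102739697 (plus), chr8:35882908-35883207 (minus), chr16:11008648-11008947 (plus) and chr15:32244613-32244912 (minus). Capitals mark any match to the motifs searched, which were the C/EBP-ATF element TGATGNAA in 5430403N17Rik, the cAMP element TGACGTCA in Gm4262 and a CCAAT box in Smkr-ps.
Smkr-ps: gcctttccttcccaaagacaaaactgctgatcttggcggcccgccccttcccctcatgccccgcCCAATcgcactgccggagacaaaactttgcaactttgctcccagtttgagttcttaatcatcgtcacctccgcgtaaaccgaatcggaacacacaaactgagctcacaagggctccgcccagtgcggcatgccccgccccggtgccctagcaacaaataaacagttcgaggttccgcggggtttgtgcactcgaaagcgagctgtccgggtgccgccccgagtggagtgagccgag
Gm5627: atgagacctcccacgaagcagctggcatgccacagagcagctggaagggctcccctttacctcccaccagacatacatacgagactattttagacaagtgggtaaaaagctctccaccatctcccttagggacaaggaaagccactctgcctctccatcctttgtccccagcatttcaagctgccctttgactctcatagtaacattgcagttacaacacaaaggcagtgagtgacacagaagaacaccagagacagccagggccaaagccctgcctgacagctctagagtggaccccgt
5430403N17Rik: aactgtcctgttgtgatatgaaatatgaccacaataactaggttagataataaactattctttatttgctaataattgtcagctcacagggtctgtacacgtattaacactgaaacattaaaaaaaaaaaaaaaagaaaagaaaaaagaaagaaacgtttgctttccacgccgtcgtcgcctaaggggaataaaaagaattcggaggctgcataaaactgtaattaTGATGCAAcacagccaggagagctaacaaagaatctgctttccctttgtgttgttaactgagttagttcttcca
Gm4262: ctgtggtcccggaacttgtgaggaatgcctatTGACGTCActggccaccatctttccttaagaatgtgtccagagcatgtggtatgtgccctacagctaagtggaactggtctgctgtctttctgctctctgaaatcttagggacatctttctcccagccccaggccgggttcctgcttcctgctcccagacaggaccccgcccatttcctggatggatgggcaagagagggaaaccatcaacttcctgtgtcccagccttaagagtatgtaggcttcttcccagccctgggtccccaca
Snhg18: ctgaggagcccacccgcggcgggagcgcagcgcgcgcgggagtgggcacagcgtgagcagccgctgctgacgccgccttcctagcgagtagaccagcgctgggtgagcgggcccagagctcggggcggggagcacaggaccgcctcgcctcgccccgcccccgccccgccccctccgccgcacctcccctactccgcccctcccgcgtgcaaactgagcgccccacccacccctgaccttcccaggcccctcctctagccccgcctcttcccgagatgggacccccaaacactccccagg
The G and C content of these windows was 59.0%, 52.3%, 35.0%, 54.3% and 75.3%, beside a median of 54.8% over the 130 lincRNAs with a RefSeq promoter and 52.7% over all 32851 promoters.

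Over those 130 promoters, searched on both strands, the motif of C/EBP factors, TTGCNNAA, was in 8 (6.15%, beside 10.8% of all promoters). The C/EBP-ATF element TGATGNAA, through which amino acid shortage is known to act on some genes, was in 4 (3.08%, beside 3.97%). The cAMP element TGACGTCA was in 5 (3.85%, beside 1.79%) and the E-box CACGTG in 13 (10.0%, beside 7.15%). The TATA box TATAAA was in 24 (18.5%, beside 13.6%) and the CCAAT box in 49 (37.7%, beside 37.4%), and matches of different motifs may overlap. A strict PPAR direct repeat and a strict glucocorticoid element were in none, beside 0.381% and 0.475% of all promoters. A match is only a description of letters in these windows, and 87 of the 130 RefSeq starts lay within 100 bases of the start in the deposited table.

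Host genes carry snoRNAs in their introns and are spliced to a short exonic RNA that is often broken down in the cytoplasm. Of the listed host genes that are lincRNAs here, 6 host snoRNAs or small Cajal body RNAs (Snhg18, Epb41l4aos, Snhg6, Snhg12, Snhg20 and Snhg10). Their median log2 fold changes were -0.50 in Differentiated and -0.28 in Lysfree against Undifferentiated, and 0.31 in Lysfree against Differentiated. None of the 6 was called higher and 2 were called lower in Differentiated than in Undifferentiated (10.4% and 11.4% of all genes tested), 0 and 1 in Lysfree against Undifferentiated (5.52% and 8.76%), and 1 and 2 in Lysfree against Differentiated (8.14% and 10.5%). Snhg18, host of Snord123, had 38.2, 49.5 and 41.6 FPKM in Undifferentiated, 12.6, 11.7 and 10.4 in Differentiated and 5.09, 4.52 and 4.37 in Lysfree. The groups were ordered with no overlap, 3.80-fold lower in Differentiated (adjusted p = 8.65e-119), 8.96-fold lower in Lysfree than in Undifferentiated (adjusted p = 1.02e-18) and 2.38-fold lower in Lysfree than in Differentiated (adjusted p = 4.82e-07). Its start lies 148 bases from that of Sema5a on the opposite strand, a semaphorin gene whose log2 fold changes in the 3 comparisons were -1.58 ± 0.12, -2.67 ± 0.17 and -1.09 ± 0.19.

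Snhg12 went the other way in Lysfree. It hosts Snora16a, Snora44, Snora61 and Snord99 and had 10.5, 12.2 and 11.9 FPKM in Undifferentiated, 6.78, 6.33 and 8.14 in Differentiated and 12.5, 18.2 and 19.4 in Lysfree. It was 2.47-fold higher in Lysfree than in Differentiated (log2 fold change 1.30 ± 0.15, adjusted p = 4.46e-07), with no overlap between any of the 3 groups. Snhg6, host of Snord87, was at 14.3 ± 2.26, 14.3 ± 0.889 and 22 ± 2.29 FPKM and was 1.59-fold higher in Lysfree than in Undifferentiated (adjusted p = 0.000242), under the 2-fold threshold. Epb41l4aos had 48.5, 66.2 and 46.6 FPKM in Undifferentiated, 23.6, 19.9 and 28.1 in Differentiated and 18.4, 55.2 and 56.4 in Lysfree. It fell 2.32-fold in Differentiated (adjusted p = 1.54e-28), and the difference of Lysfree from Differentiated was 1.91-fold with all libraries and passed 2-fold without Lysfree replicate 1 (log2 fold change 1.28).

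Snhg20 had 3.48, 5.64 and 4.18 FPKM in Undifferentiated, 6.17, 7.22 and 6.47 in Differentiated and 1.12, 3.21 and 2.71 in Lysfree, 2.68-fold lower in Lysfree than in Differentiated (adjusted p = 3.62e-05). Lysfree replicate 1 was again the lowest, and without it the log2 fold change was -1.12 in place of -1.42. Snhg10 did not pass the test in any comparison (4.85 ± 1.15, 4.16 ± 0.374 and 3.84 ± 0.941 FPKM). The other 10 listed snoRNA hosts at this level, Gas5, Zfas1, Dancr and 7 Snhg genes, have another biotype in the table and are not lincRNAs here. Of these 10, 2 were called higher and 0 lower in Differentiated than in Undifferentiated (10.4% and 11.4% of all genes tested), 4 and 1 in Lysfree against Undifferentiated (5.52% and 8.76%), and 5 and 1 in Lysfree against Differentiated (8.14% and 10.5%). All 8 listed proteins of snoRNA particles, such as fibrillarin (Fbl), were higher in both cocktail groups than in Undifferentiated at adjusted p under 0.05, as were 23% of all genes tested in Differentiated and 18% in Lysfree. With the 2-fold threshold, 3 of the 8 were called in Differentiated and 5 in Lysfree, beside 10.4% and 5.52% of all genes tested called higher. Polyadenylated libraries do not measure mature snoRNAs, and the snoRNA genes inside the hosts had at most 11 counts in any library. Of 15 genes of the nuclear exosome and its adaptors, which trim and degrade noncoding RNA, 11 were higher in Differentiated and 9 in Lysfree than in Undifferentiated at adjusted p under 0.05. None was lower. Of all genes tested, 23% were higher and 23.2% lower in Differentiated, and 18% and 17.1% in Lysfree. Of 11809 protein-coding genes chosen by the level rule, 4648 were higher and 4692 lower in Differentiated, and 3858 and 3394 in Lysfree. These are nearer in level to the snoRNA particle and exosome genes. Of the 15, 2 and 4 were called higher at 2-fold, beside 10.4% and 5.52% of all genes tested. In Lysfree against Differentiated 4 were higher and 2 lower at adjusted p under 0.05, beside 19.7% and 18.8% of all genes. The 10 listed genes of nonsense-mediated decay, a route of RNA breakdown in the cytoplasm, went both ways at adjusted p under 0.05. Against Undifferentiated, 4 were higher and 3 lower in Differentiated, and 6 and 3 in Lysfree. In Lysfree against Differentiated 4 were higher and 2 lower. The shares of all genes tested are those given above for the exosome genes.

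**Figure D4:**
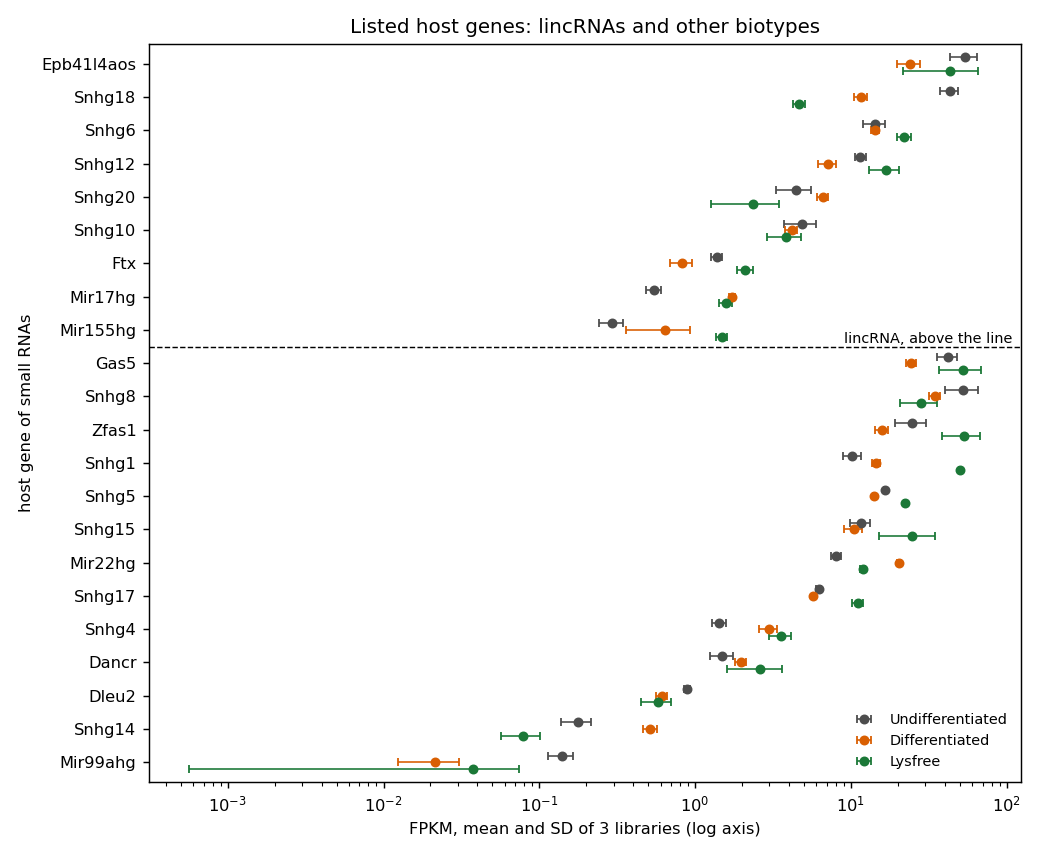
Mean FPKM with SD of 3 libraries (horizontal log axis) of the listed host genes of small RNAs at 1 CPM or more, with the 9 lincRNAs above the dashed line and 13 genes of other biotypes below it. Snhg18 runs from 43.1 FPKM in Undifferentiated to 4.66 in Lysfree, and Snhg12 is highest in Lysfree at 16.7.

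Among the microRNA hosts, Mir17hg was higher in both cocktail groups than in Undifferentiated, whether or not lysine was added. Its transcript holds 6 microRNA genes of a cluster known to promote cell cycle entry, and early clonal growth is part of 3T3-L1 differentiation. A link between such growth and the level of Mir17hg was not tested. Mir17hg had 0.478, 0.593 and 0.565 FPKM in Undifferentiated, 1.79, 1.66 and 1.73 in Differentiated and 1.72, 1.42 and 1.57 in Lysfree. Both cocktail groups lay above every Undifferentiated library, 3.10-fold in Differentiated (adjusted p = 3.22e-14) and 2.97-fold in Lysfree (adjusted p = 1.04e-06), and the log2 difference between them was -0.07 ± 0.18. A mature strand of each microRNA gene of the cluster is printed with the seed in capitals (RefSeq, GRCm38.p6, chr14, plus strand). Among the strands printed, miR-17-5p shares its seed with miR-20a-5p and miR-19a-3p with miR-19b-3p, while the seeds of miR-18a-5p and miR-92a-3p differ from all the others.
miR-17-5p: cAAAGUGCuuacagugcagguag
miR-20a-5p: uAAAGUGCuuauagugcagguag
miR-18a-5p: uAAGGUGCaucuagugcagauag
miR-19a-3p: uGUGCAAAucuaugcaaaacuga
miR-19b-3p: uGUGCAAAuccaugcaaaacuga
miR-92a-3p: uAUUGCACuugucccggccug

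Mir155hg, host of miR-155, which is known from inflammatory cells and is reported to restrain adipogenesis, was highest in Lysfree. It had 0.262, 0.350 and 0.261 FPKM in Undifferentiated, 0.316, 0.787 and 0.821 in Differentiated and 1.63, 1.43 and 1.4 in Lysfree. Every Lysfree library was above all others, 5.16-fold over Undifferentiated (log2 fold change 2.37 ± 0.37, adjusted p = 2.88e-06) and 2.38-fold over Differentiated (adjusted p = 0.00470). Differentiated overlapped with Undifferentiated, and its 2.15-fold difference (adjusted p = 0.0445) did not pass with DESeq2 (adjusted p = 0.135). Without Differentiated replicate 1, the lowest of its group, the log2 fold change of Lysfree against Differentiated was 0.95 in place of 1.25 and so under 2-fold. Ftx, on chrX:103560907-103623754, hosts miR-374b and miR-421 and lies in the region of the X inactivation centre. It had 1.29, 1.34 and 1.5 FPKM in Undifferentiated, 0.876, 0.912 and 0.668 in Differentiated and 2.37, 1.91 and 2.01 in Lysfree, with no overlap, and was 2.67-fold higher in Lysfree than in Differentiated (adjusted p = 2.91e-07). E130102H24Rik, host of miR-101a and named after its values were seen, was at 3.67, 0.793 and 1.09 FPKM in Undifferentiated, Differentiated and Lysfree and was called lower in both cocktail groups. Mature microRNAs were not measured in these libraries, so the hosts' levels say nothing direct about them. The sequences of the mature strands of Mir155hg, E130102H24Rik and Ftx follow, with seeds in capitals.
miR-155-5p: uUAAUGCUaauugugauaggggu
miR-101a-3p: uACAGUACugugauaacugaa
miR-374b-5p: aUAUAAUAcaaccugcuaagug
miR-421-5p: cUCAUUAAauguuuguugaau

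Of the 7 lincRNAs on the list of nuclear and chromatin RNAs, Pvt1 and Ftx were called in Lysfree against Differentiated, both higher. Of all genes tested, 8.14% were called higher and 10.5% lower there. Lncpint alone was called in Differentiated against Undifferentiated, lower, beside 10.4% of all genes tested called higher and 11.4% lower. The list's median log2 fold changes were -0.69 in Differentiated and 0.06 in Lysfree against Undifferentiated, and 0.31 in Lysfree against Differentiated. The list also holds the cytoplasmic Norad, whose own log2 fold change in the last comparison, 0.31, is that median. Pvt1, a neighbour of the Myc proto-oncogene that can share its enhancers, had 4.03, 3.56 and 3.77 FPKM in Undifferentiated, 2.44, 2.23 and 2.53 in Differentiated and 5.80, 5.40 and 5.28 in Lysfree. The groups did not overlap, and Lysfree was 2.40-fold above Differentiated (log2 fold change 1.26 ± 0.12, adjusted p = 1.29e-08). Myc, 47612 bases away, stood at 11.2, 63.9 and 61.5 FPKM, so that in Differentiated it was higher while Pvt1 was lower than in Undifferentiated. Lncpint, an RNA of the p53 response, fell 2.55-fold in Differentiated, from 0.156 ± 0.0513 to 0.0609 ± 0.0182 FPKM (adjusted p = 0.00525), and this did not pass without Undifferentiated replicate 2 (adjusted p = 0.0707). Jpx, an activator of Xist, was at 0.316 ± 0.0221, 0.347 ± 0.0991 and 0.320 ± 0.10 FPKM and did not pass the test in any comparison. Xist itself was under the level rule, with 0.256, 0.166 and 0.323 CPM in Undifferentiated, Differentiated and Lysfree. Hotair was also under it, with 0.528, 0.0208 and 0.112 CPM, and Miat, Rmst and Hottip had no count.

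On the list of regulators named in adipose or mesenchymal cells, 4 genes were lincRNAs at this level: Mir17hg, Mir155hg, Cyrano and Trp53cor1, with median log2 fold changes of 0.61 in Differentiated and 0.72 in Lysfree against Undifferentiated, and 0.08 in Lysfree against Differentiated. Trp53cor1, a p53 target upstream of Cdkn1a, had 0.422 ± 0.116, 0.324 ± 0.119 and 0.364 ± 0.136 FPKM, with overlapping values and no call. Lncbate1, an RNA of brown adipocytes, was under the level rule with 0.0210, 0.381 and 0.0184 CPM.

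The lincRNAs and the nearest protein-coding genes moved partly together. For the 150 whose nearest protein-coding gene lay within 10 kb and had a mean of at least 1 CPM, Pearson's r between the 2 log2 fold changes was 0.587 (Spearman's rho 0.540) in Differentiated vs Undifferentiated, 0.312 (0.331) in Lysfree vs Undifferentiated and 0.426 (0.405) in Lysfree vs Differentiated. Among the 61 with a neighbour further than 10 kb, r was 0.269, 0.175 and 0.336. Leaving out pairs whose spans overlap left 109 pairs with r of 0.572, 0.336 and 0.408. These are descriptions across genes, which share the same libraries, chromatin and, where spans overlap, possibly reads. Of the 150 lincRNAs, overlapping spans included, 55 were called in Differentiated vs Undifferentiated. Their neighbour was called the same way for 26, the opposite way for 3 and not called for 26. In Lysfree vs Undifferentiated the counts were 6, 1 and 27 of 34, and in Lysfree vs Differentiated 17, 2 and 33 of 52. Among the 61 with a neighbour further than 10 kb, the counts in Differentiated vs Undifferentiated were 14, 4 and 17 of 35. They were 5, 2 and 13 of 20 in Lysfree vs Undifferentiated, and 6, 5 and 15 of 26 in Lysfree vs Differentiated. For comparison, 31.1%, 20.2% and 27.1% of all protein-coding genes with a mean of at least 1 CPM were called in either direction in the 3 comparisons. Among the 43 pairs that start within 1 kb of each other on opposite strands, 15 lincRNAs were called in Differentiated vs Undifferentiated, with 6 neighbours called the same way, 0 the opposite way and 9 not called. In Lysfree vs Undifferentiated the counts were 1, 1 and 11 of 13, and in Lysfree vs Differentiated 5, 0 and 9 of 14.

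**Figure D5:**
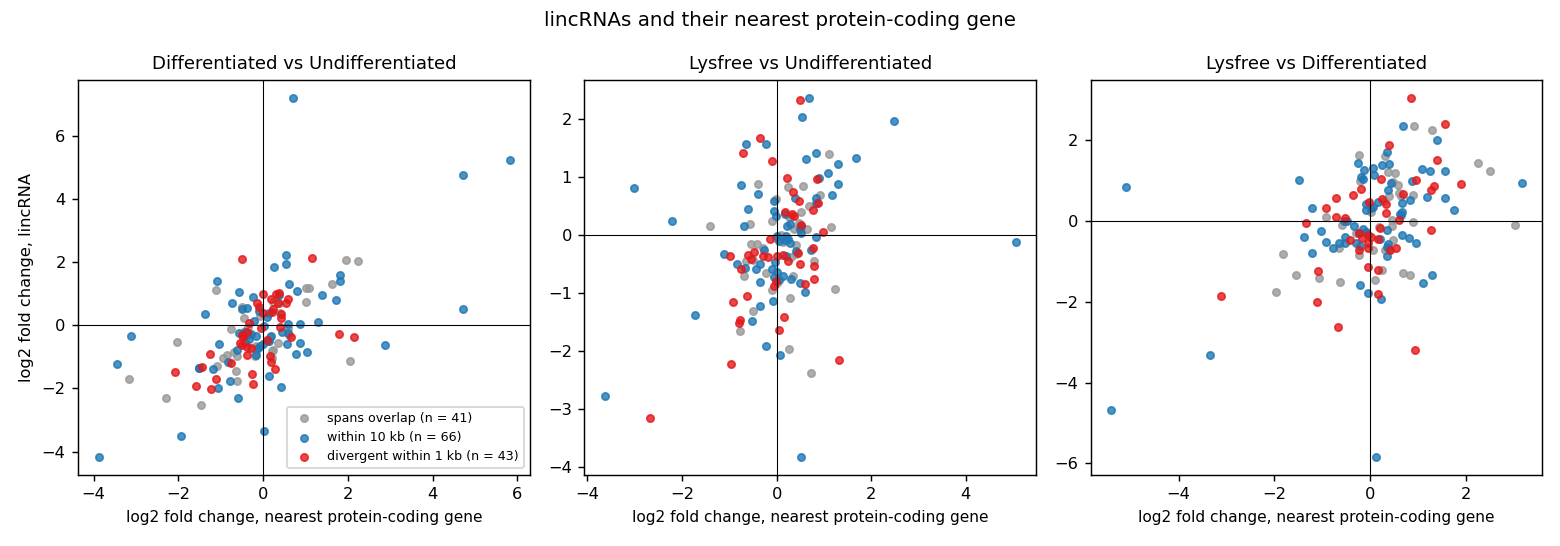
Log2 fold change of each lincRNA (vertical axis) against that of its nearest protein-coding gene (horizontal axis) in the 3 comparisons, for the 150 pairs within 10 kb. Grey points are pairs with overlapping spans, red points start within 1 kb on opposite strands (43 pairs) and blue points are the other pairs. The cloud slopes upwards most in Differentiated vs Undifferentiated, where r was 0.587, and least in Lysfree vs Undifferentiated, where r was 0.312.

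The level rule cut through a continuum. Just inside it were 2600014E21Rik, E230014E18Rik and Gm9530, with a highest group mean of 1.01, 1.01 and 1.02 CPM. Just outside were D5Ertd605e, 1110020A21Rik and Gm31793, with 0.996, 0.981 and 0.980 CPM.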

How the data were processed

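Poly A selected RNA was sequenced in 9 libraries, 3 per group. Per the study's methods, the authors dropped adaptor and low-quality reads and mapped the others to mm10. The submitters' processing notes name HISAT2 2.0.5 and featureCounts 1.5.0-p3, and the strand setting and annotation release are not given in the sources used here. The authors deposited raw counts per gene and FPKM, which divide by gene length and library total. CPM was the count scaled to the column's total. The main test was edgeR 4.0.16 (R 4.3.3, TMM, glmQLFit, glmQLFTest, Benjamini-Hochberg adjustment) on the 6 libraries compared, leaving out genes at 0 in all of them. A lincRNA was called where the adjusted p was under 0.05 and the change at least 2-fold. Levels are mean FPKM ± SD and log2 fold changes ± standard error. A group whose libraries all held 3 counts or fewer was taken as at the floor, which covers counting error only. DESeq2 1.42.0 and limma 3.58.1 (on log2 of FPKM plus 1 or 0.1) served as alternatives, and the tests were first tried on simulated counts. Named lincRNAs were the 10 most abundant, in each comparison the 6 largest called rises and 6 largest falls with no overlap and at least 2 CPM in the higher group, and those on lists of hosts, nuclear RNAs and mesenchymal regulators. Members and lists were chosen with earlier results of these data known. Transcripts and overlaps came from GENCODE vM21 and the table's GRCm38 coordinates.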

Additional observations from a re-analysis of the deposited data

How the results depend on the processing

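The counts of called lincRNAs, 105 in Differentiated vs Undifferentiated, 64 in Lysfree vs Undifferentiated and 94 in Lysfree vs Differentiated, moved most with limma on log2(FPKM + 1), which gave 36, 17 and 29 in that order, while limma on log2(FPKM + 0.1) gave 83, 55 and 73. With FPKM + 1 the share called higher in the last comparison fell from 54.3% to 37.9%. Without a fold threshold the counts were 163, 103 and 131. Fewer lincRNAs by construction gave 62, 38 and 62 with a mean of 1 CPM over all 9 libraries, 60, 38 and 61 with 2 CPM in a group, and 58, 40 and 48 without genes that overlap another. DESeq2 gave 96, 60 and 85. Leaving out 1 library gave 100 to 107, 57 to 68 and 84 to 100. Replicate numbers do not pair the samples (r of deviations -0.0849 to 0.116), and with the replicate block the counts were 104, 62 and 91.

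Of 2014 alternative values of named lincRNAs, 1868 kept direction and side of the threshold and 29 turned sign, none of these with an adjusted p under 0.05 at first. A value that kept direction but had no adjusted p was counted as kept. In Differentiated vs Undifferentiated, Snhg6 was 0.0111 and 0.0124 with limma on FPKM + 1 and + 0.1, and Gm42743 0.0051 and 0.0053. Leaving out 1 library there gave -0.1233 to 0.0850 for Snhg6, -0.1534 to 0.1679 for Gm42743, -0.2712 to 0.1453 for Gm46404 and -0.0119 to 0.3306 for Jpx. In Lysfree vs Undifferentiated it gave -0.4943 to 0.0700 for Epb41l4aos, -0.1030 to 0.1850 for Malat1, -0.4136 to 0.0775 for Trp53cor1 and -0.2210 to 0.2472 for Jpx, and Jpx was -0.0128 with FPKM + 0.1. In Lysfree vs Differentiated it gave -0.3679 to 0.3544 for Gm10076, -0.2734 to 0.0911 for Snhg10, -0.0343 to 0.4626 for Trp53cor1 and -0.3419 to 0.1210 for Jpx. With library sizes alone, Gm10076 was 0.0573, Snhg10 0.0146, Mir17hg 0.0039 and Jpx 0.0091 there. The cause was not tested. Low counts limit the members under 1 CPM in a group.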
